A study of Mus musculus with 2 samples.

Results

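The family of miR-103 and miR-107 in the mouse was followed in the adrenal gland through its 3 genes, Mir103-1, Mir103-2 and Mir107, out of the 2202 miRNA genes of the count tables. The genes were taken by name, and no measured value enters that rule. RNA under 30 nucleotides was sequenced from adrenal glands of female B6CASTF1/J mice aged 25 days, the first-generation cross of C57BL/6 with the wild-derived strain CAST. The animals had no treatment or engineered allele in the labels, and the 2 libraries, biological replicates 1 and 2, form 1 group. The labels number the glands as those of separate mice but give the same donor identifier for both, so any difference between the libraries may be technical. Whole glands hold steroid-making cortex, catecholamine-releasing medulla, vessels and blood, and the tables hold miRNA genes only, so no enzyme marks the cortex. In such bulk tissue fewer cells of a type and less RNA per cell cannot be told apart.

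MicroRNAs are short RNAs that lead Argonaute proteins to messenger RNAs, chiefly by pairing of the seed near their 5′ end, and so lower the output of those messages. Each hairpin precursor can give a mature strand from its 5′ arm (5p) and one from its 3′ arm (3p), and in miR-103 and miR-107 the 3p strand is the main product. The family lies in introns of the pantothenate kinase genes, whose enzymes open the synthesis of coenzyme A, the carrier of acyl groups in lipid metabolism and in the acetyl units from which cholesterol is made. Work in other tissues has tied miR-103 and miR-107 to insulin sensitivity through Cav1 and to the level of the miRNA-processing enzyme Dicer. Cholesterol is the precursor of adrenal steroids.

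All 3 genes lie inside introns on the strand of their host. In mm10, Mir103-1 (ENSMUSG00000065553.1) spans bases 35782396 to 35782481 of chromosome 11 on the plus strand, in intron 5 of 6 of a protein-coding Pank3 transcript. Mir103-2 (ENSMUSG00000065563.1) spans bases 131288052 to 131288137 of chromosome 2 on the plus strand. Every one of the 7 annotated Pank2 transcripts across it has it in an intron, which is intron 5 of 6 in the protein-coding transcript with 7 exons. Mir107 (ENSMUSG00000065594.1) spans bases 34820687 to 34820773 of chromosome 19 on the minus strand, in intron 5 of 6 of a protein-coding Pank1 transcript with 7 exons. In these transcripts Mir107 starts 326 bases after the upstream exon, Mir103-2 454 bases and Mir103-1 688 bases. The nearest annotated miRNA gene lay 70074 bases from Mir107 (Gm27476, no read in either library), 165471 bases from Mir103-1 (Mir218-2, 64 and 132 reads) and 247654 bases from Mir103-2 (Mir6973b, no read in either library).

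The hairpins are shown because their likeness sets which reads can be placed at a single gene. They are RefSeq sequences of GRCm38.p6, found for all 3 genes and identical to the GENCODE M21 transcripts. Capitals mark the mature 5p and 3p strands.
Mir103-1: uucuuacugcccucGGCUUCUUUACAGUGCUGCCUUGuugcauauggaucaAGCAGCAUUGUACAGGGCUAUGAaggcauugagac
Mir103-2: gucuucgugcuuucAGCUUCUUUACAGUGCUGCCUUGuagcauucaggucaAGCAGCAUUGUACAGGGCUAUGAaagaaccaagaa
Mir107: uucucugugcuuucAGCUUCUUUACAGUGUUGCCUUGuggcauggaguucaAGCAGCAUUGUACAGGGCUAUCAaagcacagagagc

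The 3p strands, each of 23 bases, are identical in Mir103-1 and Mir103-2, and miR-107-3p differs from them by G22C, counted from 1 at the 5′ end with the base of miR-103 first. Here the capital marks that base.
miR-103-3p: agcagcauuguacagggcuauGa
miR-107-3p: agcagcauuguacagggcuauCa
The seed of both, bases 2 to 8, is GCAGCAU, and no other mouse miRNA in the RefSeq table carries it. The 5p strands differ at the first base (G1A from miR-103-1-5p to miR-103-2-5p) and at base 16 (C16U from miR-103-2-5p to miR-107-5p), which are in capitals below.
miR-103-1-5p: GgcuucuuuacagugCugccuug
miR-103-2-5p: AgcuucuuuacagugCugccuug
miR-107-5p: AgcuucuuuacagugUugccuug

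These few differences set the length at which a read lies in 1 gene only. A read that starts at the first base of the 3p strand was found in all 3 genes up to 21 bases. From 22 bases a miR-107-3p read lay in Mir107 alone among the 2202 annotated miRNA genes. A miR-103-3p read of the full 23 bases lay in both Mir103-1 and Mir103-2, and 25 bases, past the annotated end, were needed to tell them apart. Reads from the first base of any of the 3 5p strands lay in 1 gene at 16 bases, the shortest length searched. The search asked for exact matches on either strand of annotated miRNA genes, and the rest of the genome was not searched. The tables count for no gene those reads that mapped to several places (28.4% in library 1, 27.5% in library 2). How many of them came from miR-103 and miR-107 was not measured, so the counts below are reads placed at a gene and not levels of mature miR-103 or miR-107.

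**Figure D1:**
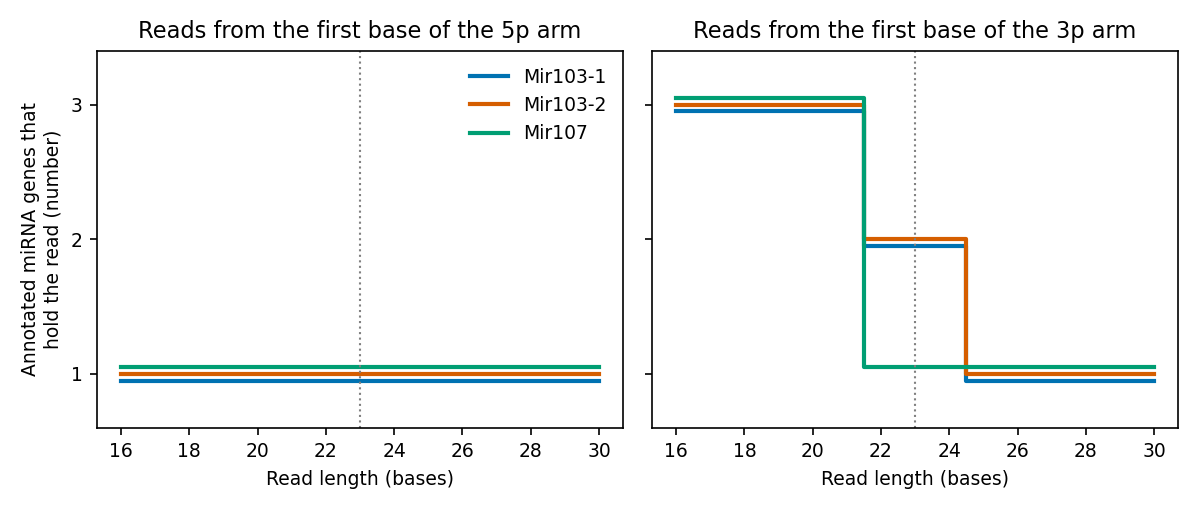
Number of annotated miRNA genes that hold a read (y axis) against the read length in bases (x axis), for reads from the first base of the 5p strand (left) and of the 3p strand (right). Lines are the 3 genes, set slightly apart so that all are visible, and the dotted line is the annotated length of 23 bases. On the 5p side every length lies in 1 gene, and on the 3p side Mir107 reaches 1 gene at 22 bases and the miR-103 genes at 25.

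Mir107 took nearly all of the reads placed in the family. It had 4832 reads in library 1 and 16031 in library 2. Mir103-2 had 45 and 124 reads, and Mir103-1 had 9 and 16. Mir107 thus made up 98.9% of the family's reads in library 1 (95% Wilson interval 98.6 to 99.2%) and 99.1% in library 2 (99.0 to 99.3%). The intervals cover counting error only, as amplified reads are not independent molecules where no molecular identifier marks them. The intervals of the libraries overlapped.

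Between the miR-103 copies, whose 3p strands are identical, the reads were unequal. Mir103-2, the Pank2 copy, held 83.3% of the reads of both copies in library 1 (95% Wilson interval 71.3 to 91.0%, 45 of 54 reads) and 88.6% in library 2 (82.2 to 92.8%, 124 of 140 reads). That is 5.0 times the reads of the Pank3 copy in library 1 and 7.75 times in library 2. The order Mir107, Mir103-2, Mir103-1 held in both libraries, and within a library the intervals of their shares did not meet. The tables give reads per gene and not per strand of the hairpin, so the part of 5p and 3p reads in these counts was not measured.

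Levels were expressed as CPM, a gene's reads per 1000000 of the 2244073 reads of library 1 or the 3912280 of library 2 that lie on the strand of a miRNA gene. Mir107 had 2153 CPM in library 1 and 4098 CPM in library 2, with a mean of 3125 ± 1375 CPM (SD, n = 2). It was the 44th most abundant of 2202 genes by the mean, 52nd in library 1 and 37th in library 2. Its neighbours in that order, Mir93 with 3330 ± 521 CPM and Mir382 with 3107 ± 654 CPM, lay within its spread (SD, n = 2).

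Mir103-2 had 20.1 CPM in library 1 and 31.7 CPM in library 2, a mean of 25.9 ± 8.23 CPM (SD, n = 2) and rank 254. Its neighbours Mir378d and Mir293, with means of 26.1 and 25.1 CPM, lay within its spread. Mir103-1 had 4.01 and 4.09 CPM, a mean of 4.05 ± 0.0559 CPM (SD, n = 2) and rank 343. Its neighbours Gm23634 (4.12 ± 1.41 CPM) and Mir141 (3.99 ± 1.23 CPM) differed from it by less than their own spread (SD, n = 2). Of the 3 genes, Mir107 and Mir103-2 were among the 337 with at least 10 reads in each library, and Mir103-1 fell short by 1 read in library 1. Together they held 0.218% of the miRNA reads in library 1 and 0.413% in library 2.

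**Figure D2:**
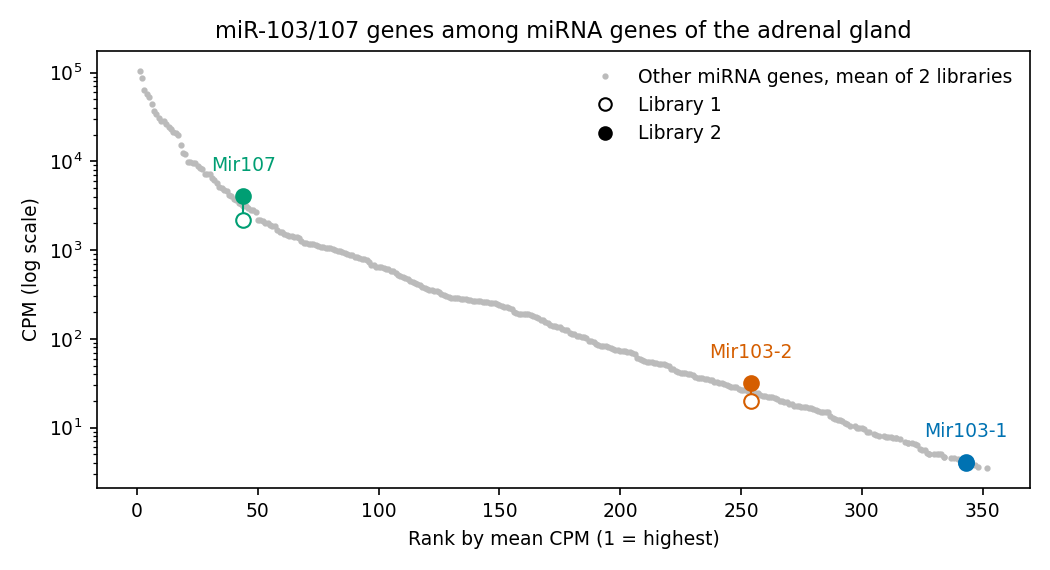
CPM on a log scale (y axis) against the rank by mean CPM (x axis) for the genes with at least 10 reads in each library and for Mir103-1. Grey points are means of both libraries, open circles library 1 and filled circles library 2. Mir107 stands at rank 44, Mir103-2 at 254 and Mir103-1 at 343, where the circles of both libraries coincide.

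No read lay on the strand opposite to any of the 3 genes. A count of 0 allows up to 3 reads, or 1.34 CPM in library 1 and 0.767 CPM in library 2. The unstranded counts of the 3 genes equalled the stranded ones.

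The family was then compared between the libraries. A two-sided exact binomial test was run on each gene with a sum of at least 10 reads and adjusted by Benjamini and Hochberg over all 411 genes tested, after scaling with edgeR's trimmed mean of M values (TMM). It sets the difference between these libraries, not conditions, against counting error alone and takes reads as independent molecules, so its p-values hold no spread between animals and can be too small. Mir107 was 2.02-fold higher in library 2, with a log2 ratio of library 2 over library 1 of 1.01 (95% counting interval 0.97 to 1.06) and an adjusted exact binomial p below 1e-300. Mir103-2 was 1.67-fold higher in library 2, with a log2 ratio of 0.74 (0.25 to 1.23, adjusted exact binomial p = 0.00499). Mir103-1 had a log2 ratio of 0.08 (-1.07 to 1.23, adjusted exact binomial p = 1), an interval that at 9 and 16 reads holds a change of 2-fold in either direction, and its sign turned with scaling by library size.

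The call for Mir107 and Mir103-2 has to be read against a wide background. Of the 411 genes tested, 58.4% were called in either direction, 29.4% were called higher in library 2, and 15.1% were called higher there by 1.5-fold or more. Both genes belong to the last class, and 40 of the 411 genes had a larger log2 ratio than Mir107. With 2 of 3 called, the family lies near the background of 58.4%, which holds for this filter on low counts only. Here 240 of 411 tested genes were called. It was 222 of 751 with no filter and 185 of 223 with a minimum of 100 reads per library. Of all called genes 50.4% were higher in library 2, against 61.7% with no filter on low counts and 42.9% with scaling by library size, where most calls were higher in library 1. The median log2 ratio of all tested genes was -0.07.

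The 3 genes were not told apart in how they differed between libraries. The log2 ratio of Mir107 exceeded that of Mir103-2 by 0.28 (95% counting interval -0.21 to 0.77) and that of Mir103-1 by 0.93 (-0.22 to 2.09). That of Mir103-2 exceeded that of Mir103-1 by 0.66 (-0.60 to 1.91). All 3 intervals hold 0, and with so few reads at the miR-103 copies they are wide.

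Markers of other cell types also differed between the libraries. Of 11 marker genes on the lists, none was at 0, and 7 were called higher in library 2 and 3 in library 1. Of all tested genes, 58.4% were called and 29.4% were called higher in library 2. With a minimum of 100 reads per library, which all markers but Mir223 meet, 185 of 223 genes were called, 100 of them higher in library 2. The endothelial marker Mir126a had 53763 CPM in library 1 and 121007 CPM in library 2. The red blood cell markers Mir451a and Mir144 had 633 CPM summed in library 1 and 25693 CPM in library 2. Mir486, a red blood cell miRNA not on the list, went the other way. It had 47.7 CPM in library 1 and 22.0 CPM in library 2 and was called higher in library 1. The hepatocyte marker Mir122 had 5185 and 491 CPM. The smooth muscle and fibroblast list had 28140 and 41342 CPM, carried by Mir143 (27293 and 40553 CPM), while Mir145a had 847 and 789 CPM and was not called. The leukocyte markers went opposite ways within a summed level of 315 and 362 CPM, with 199 and 337 CPM for Mir142 and 116 and 25.0 CPM for Mir223. The neuroendocrine list had 41495 and 42104 CPM. Mir378a, the only gene of the adipose list, had 48306 and 39631 CPM. It ranked 6th of all genes by mean CPM, and whether its reads came from adipose cells was not tested. The part of the marker genes in the difference of Mir107 was not tested. With all 11 left out of the library sizes and the scaling, the log2 ratio of Mir107 was 1.04 and that of Mir103-2 0.76. Leaving them out shifts all log2 ratios alike, by 0.025, so it does not test their part in the difference of Mir107.

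The wider relatives of miR-103 and miR-107 were described next. The group named after miR-15 and miR-107 gathers miRNAs that carry the letters AGCAGC at their 5′ end, beginning at base 1 in miR-103-3p and miR-107-3p and at base 2 in the others, so that their seeds are shifted by a base. Its best known members, miR-15 and miR-16, restrain cell division and survival through cyclins and Bcl2. The sequences below are from RefSeq (GRCm38.p6) and show the shift, with the seed in capitals.
miR-103-3p: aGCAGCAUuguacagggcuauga
miR-107-3p: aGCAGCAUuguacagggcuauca
miR-15a-5p: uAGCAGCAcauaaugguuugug
miR-16-5p: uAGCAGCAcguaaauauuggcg
miR-322-5p: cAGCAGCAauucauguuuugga
miR-503-5p: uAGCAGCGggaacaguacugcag

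The list held 13 genes, all of them in the tables: the 3 of miR-103 and miR-107 and 10 others. Mir497b, which lies opposite to Mir497, was on it by name and lacks these letters. By mean CPM of reads placed at a gene, Mir107 was second of the 13, after Mir322 with 24351 ± 8157 CPM (SD, n = 2). Mir322 is a miRNA of an X-linked cluster with Mir503. Mir16-1 followed with 1902 ± 1109 CPM, a range that overlapped that of Mir107 although Mir107 was above it within each library, then Mir15a with 1692 ± 396 CPM, Mir195a with 1174 ± 439 CPM and Mir15b with 1147 ± 345 CPM (SD, n = 2). Mir497 had 642 ± 26.5 CPM, Mir16-2 349 ± 148 CPM and Mir503 289 ± 59.2 CPM (SD, n = 2). Mir103-2 and Mir103-1 came after these 9 genes. Full-length miR-107-3p lies in 1 gene, while full-length miR-103-3p and miR-16-5p lie in 2 genes each. Reads that mapped to several places were counted for no gene, so this order is not one of mature miRNAs. Mir195b had 1 read in library 1 and none in library 2, and Mir497b had none on its strand in either. The 3 genes of miR-103 and miR-107 held 7.95% of the reads of the group in library 1 (95% Wilson interval 7.73 to 8.16%) and 9.84% in library 2 (9.70 to 9.99%).

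The group holds another mature sequence shared by a pair of genes. MiR-16-5p, of 22 bases, is identical in Mir16-1 and Mir16-2, and a read from its first base had to reach 24 bases to lie in 1 gene. Mir16-1 had 1118 CPM in library 1 and 2686 CPM in library 2, and Mir16-2 had 245 and 454 CPM. Each was above either miR-103 copy in both libraries. The 5p strands of miR-15a, miR-15b, miR-322 and miR-503 lay in 1 gene at 16 bases and those of miR-195a and miR-195b at 17. That of miR-497a lay in 2 genes at full length and in 1 gene at no length searched, as Mir497b lies opposite to Mir497.

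Of the 10 other genes of the group, 8 were tested, of which 4 were called higher in library 2, 3 in library 1, and 1, Mir497, was not called. Of all tested genes, 58.4% were called and 29.4% were called higher in library 2. With a minimum of 100 reads per library, which all 8 genes meet, 185 of 223 genes were called, 100 of them higher in library 2. The 8 genes had a median log2 ratio of 0.28, beside -0.07 for all tested genes. Higher in library 2 were Mir16-1 (log2 ratio 1.35, 95% counting interval 1.29 to 1.41), Mir16-2 (0.97, 0.84 to 1.11), Mir322 (0.78, 0.77 to 0.80) and Mir15a (0.57, 0.51 to 0.63). Higher in library 1 were Mir195a (log2 ratio -0.70, -0.77 to -0.63), Mir15b (-0.54, -0.61 to -0.47) and Mir503 (-0.34, -0.47 to -0.20). Mir15b and Mir16-2 differed in opposite directions although they are neighbours on the plus strand of chromosome 3, where Mir15b ends at base 69009835 and Mir16-2 starts at base 69009902. Reads that mapped to several places are in neither the Mir16-1 nor the Mir16-2 count, so this contrast is one of placed reads only. Mir322 and Mir503, which share a cluster, also differed in opposite directions. Mir15a and Mir16-1, neighbours on chromosome 14, were both higher in library 2. Mir497 had a log2 ratio of 0.00 (-0.09 to 0.09, adjusted exact binomial p = 1), and with no filter on low counts it was called higher in library 2, while Mir503 was no longer called. The log2 ratio of Mir107 lay between those of Mir16-1 and Mir16-2.

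**Figure D3:**
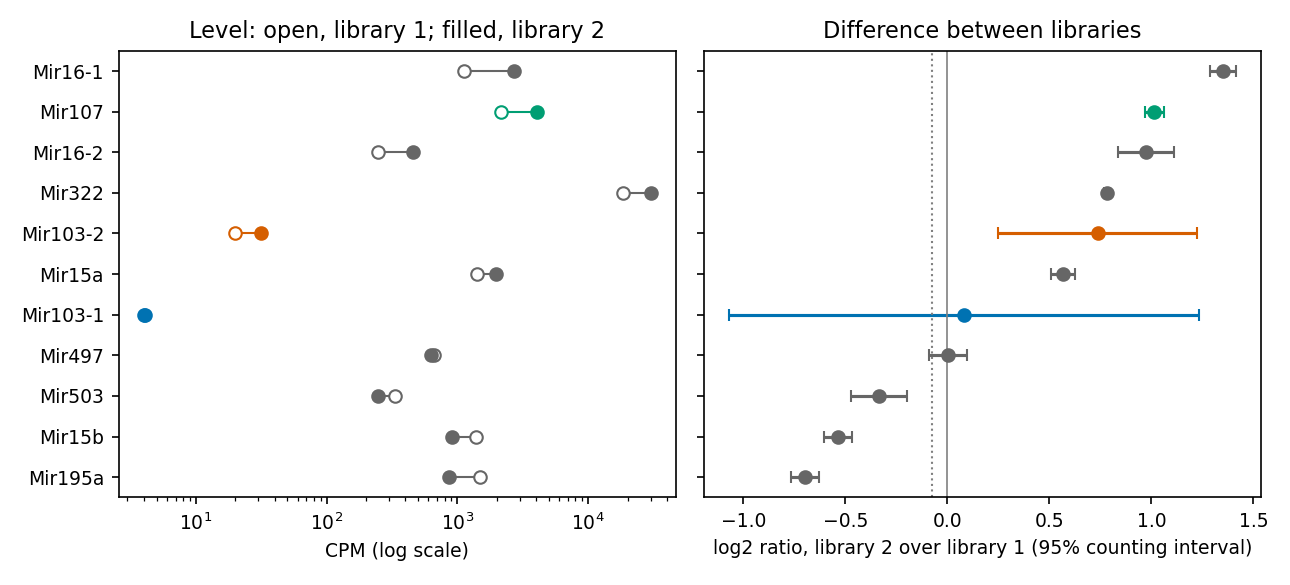
Left, CPM on a log scale (x axis) of the 11 tested genes of the group of miR-15 and miR-107, open circles for library 1 and filled circles for library 2. Right, log2 ratio of library 2 over library 1 with 95% counting intervals, the solid line at 0 and the dotted line at the median of all tested genes, -0.07. Mir107 (green) and Mir103-2 (orange) lie to the right of 0, and the interval of Mir103-1 (blue) spans 0.

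The genes nearest to Mir107 in log2 CPM over both libraries were Mir100, Mir17 and Mir93, at distances of 0.38, 0.39 and 0.48. Mir100 had 2259 CPM in library 1 and 3156 CPM in library 2. Mir17 had 2810 and 3973 CPM, and Mir93 had 2962 and 3698 CPM. All 3 were above Mir107 in library 1 and below it in library 2. Nearest to Mir103-2 were Mir302b, Mir302a and Mir8114, at distances of 0.17, 0.21 and 0.26. Mir302b had 18.3 and 34.3 CPM, Mir302a 18.7 and 36.0 CPM and Mir8114 20.5 and 26.6 CPM in libraries 1 and 2. With 2 libraries, likeness in level says nothing of a shared pattern across conditions.

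Among miRNA genes at large, Mir103-1 and Mir103-2 belong to 90 genes whose mature sequence carries a name that RefSeq gives to 2 or more genes, a set formed after the values were seen. Of these, 38 (42.2%) had no read in either library and 42 (46.7%) had at least 10 reads in each, beside 337 of all 2202 genes. By mean CPM Mir103-2 was 30th and Mir103-1 45th of the 90. Of the 120 genes whose symbol ends in a copy number from 1 to 3, 56.7% had no read in either library, beside 66.4% of the 2082 other genes. At least 10 reads in each library were found for 35% of the 120 and 14.2% of the others. Among genes that passed this limit, the median of the mean CPM was 67.2 for the 120, 43.7 for the 90 and 182 for the 2082 others. How many reads such copies lost by mapping to several places was not measured.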

How the data were processed

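For each library the authors deposited raw counts of reads by miRNA gene, neither normalized nor pooled. The assembly was mm10, per the labels, and the annotation GENCODE M21, per the text deposited with each table. Which aligner, counter and trimming were used is not given in the sources used here. Each table has an unstranded column and a pair of stranded columns, and the one of these that had the larger total was used. That meaning was inferred from the layout and the values. Library 1 held 7938596 reads and library 2 held 11132685, of which 28.3% and 35.1% lay on the strand of a miRNA gene. Library sizes leave out rows that name no gene: unmapped (33.8% and 27.8%), mapped to several places (28.4% and 27.5%) and outside miRNA genes (9.57% and 9.53%).

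All 2202 identifiers were found in GENCODE M21. Tests were run across all genes with scipy 1.17.1, TMM scaling with edgeR 4.0.16 (R 4.3.3) and size factors with DESeq2 1.42.0. With 1 group a quasi-likelihood test has no coefficient, so the exact binomial test, conditional on the sum, was used with a threshold of 0.05. It was tested on data simulated with counting error alone, which cannot show how it performs where reads are not independent molecules. Ratios had 0.5 read added. The smallest p written was 1e-300. Python 3.11.15, numpy 2.4.6, pandas 2.3.3 and matplotlib 3.10.9 were used.

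Named genes are the 3 genes, the list of the miR-15 and miR-107 group, and the 3 genes nearest in level to Mir107 and to Mir103-2. The marker lists, Mir486, Mir3107 opposite to it, and the neighbours in order of level or on the chromosome are also named. Mir497 stands on the list as Mir497a. Although the rule for the members is their name, the choice to describe them and the lists was made with earlier results of these data known. Alternatives were the scaling, the filter on low counts, the counted column, the library size and the reads added. The alternative without marker genes and the values of Mir486 and Mir3107 were added after seeing the data.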

Additional observations from a re-analysis of the deposited data

How the results depend on the processing

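With scaling by library size the log2 ratio of Mir103-1 turned to -0.0054, within a counting interval of more than 2-fold on either side. Taken over all reads of a library in place of miRNA reads, the mean CPM was 1024 for Mir107, 8.40 for Mir103-2 and 1.29 for Mir103-1, and the share of the 3 genes was 0.103%, by construction of the larger total. With the unstranded column, whose miRNA total is smaller, the mean CPM of Mir103-1 was 4.92. The other 49 alternative values kept their direction and side of the threshold or, where no test applied, moved by less than 1 SD between the libraries (levels and shares), by less than the SD over genes (median of the other group genes), within its Wilson interval (numbered copies without a read) or by less than 1.5 times (counts of calls, 185 to 240). The SD of Mir103-1 is small, so its move passed that limit, while Mir107 at 3849 CPM and Mir103-2 at 31.7 CPM with the unstranded column did not. Among the 49 the log2 ratio of Mir107 ran from 0.93 to 1.18 and that of Mir103-2 from 0.65 to 0.90, with adjusted exact binomial p for Mir103-2 from 0.00089 to 0.0156. With no filter on low counts the TMM scaling shifted log2 ratios by 0.17, and 61.7% of called genes were higher in library 2 in place of 50.4%, while with scaling by library size it was 42.9%. With a minimum of 100 reads per library, neither miR-103 gene could be tested. The filter also changes how many genes are tested, so similar counts of calls do not mean a stable share called. The calls were 240 of 411 genes in the main run, 222 of 751 with no filter and 185 of 223 with this minimum. Leaving out a library left no comparison between libraries, so only levels and shares were recomputed. With 2 libraries, the value of either alone always lies within 1 SD of their mean, so these alternatives could not have moved. The shares within the family in the unstranded column rest on the same counts and could not move either. Such values among the 49 say nothing of stability. No paired analysis was possible because the design holds 1 group only. At 9 and 16 reads depth limits Mir103-1, and the loss of reads of the 3 genes that mapped to more than 1 place was not measured.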
